A study of Mus musculus with 9 samples.

Results

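The 42 genes described here are cell cycle and proliferation genes, chosen by symbol from the 22054 genes of the expression table, and all 42 were found. Their products copy DNA, drive the passage through the cell cycle or separate the chromosomes, except for a pair of inhibitors of cyclin-dependent kinases that hold the cycle back. By role they comprised 13 replication genes, 4 regulators of the step from G1 into S phase, 10 mitotic cyclins, kinases and regulators, 6 checkpoint and centromere genes, 7 genes of the spindle, cytokinesis and chromosome structure, and 2 CDK inhibitors.

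RNA came from the callus on day 7 after femoral fracture in male mice that the labels give as 7 weeks old, and all groups carried the fracture. The H-151 group received H-151, a covalent inhibitor of the innate immune adaptor STING, at 750 nmol in 200 μl by daily intraperitoneal injection for a week. The SR-717 group received SR-717, a small molecule agonist of STING, at 30 mg/kg in 200 μl by the same route and schedule, and the PBS group received 200 μl of PBS. Each group had 3 libraries from samples labelled as separate biosamples, so p-values measure the spread between these samples. The callus was sequenced as a whole, so fewer cells of a type and less RNA per cell cannot be told apart, and the extraction text in the labels speaks of cell lines although the tissue is given as bone.

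In the early callus, periosteal progenitors, fibroblasts and cartilage precursors divide while blood cells and their precursors enter from the marrow and the circulation. Cells in G1 accumulate cyclin D and cyclin E, which release the E2F factors that switch on the replication genes. The mitotic genes follow in G2 through the DREAM and MuvB complexes and FoxM1, which act at short promoter elements, and the transcripts of both sets are scarce in resting cells, which makes them a common readout of proliferation in tissue.

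The promoters of 4 of the genes are shown because these elements occurred more often in the members' promoters than in all promoters, though unevenly by role and not in every member. Promoters from RefSeq on GRCm38.p6, covering 250 bases before to 50 after a start, were found for 33 of the 42 genes in 36 windows. Both strands were searched for the letters TTTGAA (a form of the cell cycle genes homology region, CHR), for CCAAT, and for TTTGGCGC, TTTCGCGC, TTTCCCGC and TTTGCCGC as E2F letters. The windows printed are the pair with most matches among the mitotic genes, and among the replication genes, that are given in full below. Other members hold as many or more, such as Ube2c with 6 CCAAT matches. The windows follow, 5′ to 3′, with every match on either strand in capitals.
Top2a (chr11:99024140-99024439, strand -): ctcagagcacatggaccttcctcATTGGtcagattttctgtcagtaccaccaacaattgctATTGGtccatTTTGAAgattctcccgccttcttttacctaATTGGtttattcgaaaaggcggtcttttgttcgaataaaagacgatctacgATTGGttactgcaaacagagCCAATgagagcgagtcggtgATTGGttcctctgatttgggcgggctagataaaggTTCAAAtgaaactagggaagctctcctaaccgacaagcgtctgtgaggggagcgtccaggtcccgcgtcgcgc
Cdk1 (chr10:69352863-69353162, strand -): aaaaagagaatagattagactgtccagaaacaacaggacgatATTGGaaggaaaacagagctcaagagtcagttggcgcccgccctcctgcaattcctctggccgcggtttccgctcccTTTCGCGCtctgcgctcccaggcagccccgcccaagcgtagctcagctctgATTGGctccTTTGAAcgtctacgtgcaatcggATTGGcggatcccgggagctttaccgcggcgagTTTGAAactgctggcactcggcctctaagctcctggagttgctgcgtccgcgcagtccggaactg
Mcm5 (chr8:75109259-75109558, strand +): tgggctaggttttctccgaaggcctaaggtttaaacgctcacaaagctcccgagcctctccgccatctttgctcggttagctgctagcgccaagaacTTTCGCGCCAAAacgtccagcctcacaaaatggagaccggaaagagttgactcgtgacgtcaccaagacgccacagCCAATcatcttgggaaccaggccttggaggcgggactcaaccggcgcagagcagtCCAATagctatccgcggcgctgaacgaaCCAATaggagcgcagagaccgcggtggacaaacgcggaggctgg
Mcm2 (chr6:88898731-88899030, strand -): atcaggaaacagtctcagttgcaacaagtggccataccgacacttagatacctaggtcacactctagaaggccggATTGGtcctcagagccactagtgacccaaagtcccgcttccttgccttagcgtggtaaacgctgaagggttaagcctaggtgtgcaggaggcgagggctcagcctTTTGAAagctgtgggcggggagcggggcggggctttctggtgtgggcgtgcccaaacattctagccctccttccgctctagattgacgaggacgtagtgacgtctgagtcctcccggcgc

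Top2a, which encodes topoisomerase II alpha, held 6 CCAAT matches and 2 TTTGAA matches, the nearer of which lay 23 bases before the start on the opposite strand. Cdk1, the kinase of mitotic entry, held 3 CCAAT and 2 TTTGAA matches, at 71 and 15 bases before the start, and 1 E2F match. In Mcm5, a subunit of the replicative helicase, the E2F letters on the 2 strands overlapped in a single run beside 3 CCAAT matches. Mcm2, another subunit, held no E2F letters, 1 TTTGAA and 1 CCAAT match.

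Across roles the elements were unevenly spread. TTTGAA was present in 13 of the 18 windows of mitotic genes (72.2%), in 2 of the 12 windows of replication genes (16.7%) and in 17.9% of all 32851 promoters. CCAAT was present in 88.9% of the mitotic windows, 83.3% of the replication windows and 37.4% of all promoters. E2F letters were present in 5 of the 12 replication windows (41.7%), in 5.56% of the mitotic windows and in 2.26% of all promoters. None of these letters was in the 2 windows of the G1/S regulators, and the CDK inhibitors held CCAAT in 25.0% of theirs. A match is a description of the letters and was not tied to binding in these samples. The genes themselves lay on 17 chromosomes of GRCm38, with 8 of the 42 on chromosome 2.

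Libraries held 16987398 to 23272480 expected counts, and the 42 genes took 0.154% to 0.219% of them. The count of a member ranged from 36 to 4950, so that each was measured in every library and all 42 passed the filter on low counts in each comparison. Osteoblast markers summed to between 22700 and 45700 CPM (counts scaled to library size) and cartilage markers to between 837 and 18700 CPM, with the lowest cartilage value in SR-717 replicate 1. That library stood apart on the first principal component of all genes (a score of 101, the next highest being 38.8 in PBS replicate 1), which took 46.6% of the variance, and it had the highest neutrophil, macrophage and T and NK cell marker levels. Values without it are given for some of the genes for which it was the highest library.

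Per transcript length, as TPM (transcripts scaled for length and library), the levels spanned from 208 for Cdkn1a to 3.17 for Cenpe. Cdkn1a encodes p21, an inhibitor of cyclin-dependent kinases that is also expressed in cells that have left the cycle, and its 9 libraries lay between 192 and 235 TPM. Pcna, the sliding clamp of DNA polymerase, followed at 94.9 TPM, Ube2c, a ubiquitin-conjugating enzyme of the anaphase-promoting complex, at 92.3 TPM and Cdk1 at 78.2 TPM. The next lowest after Cenpe were Ccne2 (cyclin E2) at 3.34 TPM, Bub1, a spindle checkpoint kinase, at 3.69 TPM and Cenpf, a kinetochore protein, at 3.98 TPM. The order was otherwise close, because only 3 of the 41 gaps between neighbours exceeded the larger of the neighbours' within-group SDs on the log2(TPM + 1) scale, below Cdkn1a, Ccne1 and Kif11.

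**Figure D1:**
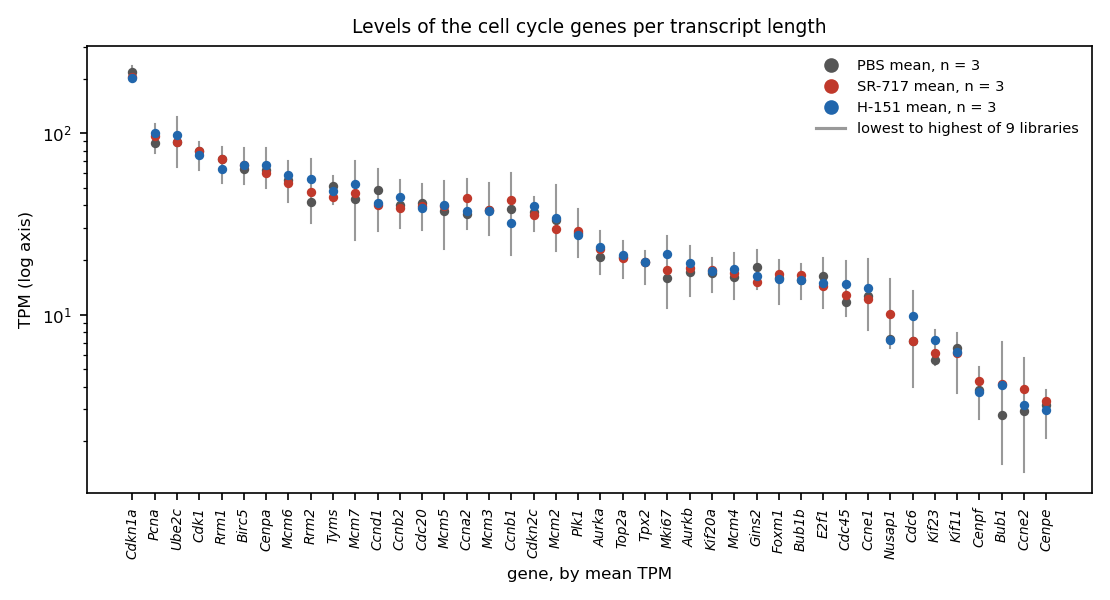
TPM of the 42 genes on a log axis, ordered by mean. Points are the means of the PBS, SR-717 and H-151 groups (n = 3 each) and grey lines run from the lowest to the highest of the 9 libraries. The group means sit within these lines for each gene and Cdkn1a stands above the rest at 208 TPM.

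The 6 subunits of the MCM helicase, which act as a ring with 1 copy of each, differed in TPM. Mcm6 was at 55.9 TPM, Mcm7 at 47.5, Mcm5 at 39.1, Mcm3 at 37.7, Mcm2 at 32.3 and Mcm4 at 17. The subunits of ribonucleotide reductase, which makes deoxynucleotides, were at 69.0 TPM for Rrm1 and 48.2 for Rrm2. Among cyclins, Ccnd1 was at 43.3 TPM, Ccnb2 at 41.2, Ccna2 at 38.9 and Ccnb1 at 37.7, with the E cyclins below at 12.9 for Ccne1 and 3.34 for Ccne2.

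For most of the 42 genes the group means lay closer together than the SD of the libraries within a group. Means of 3 libraries vary less than single libraries, so this does not compare the variation between groups with that within them. On the log2 CPM scale the range of the 3 group means was below the within-group SD for 37 of the 42 genes (88.1%), against 67.5% of all 14294 genes kept, and the median within-group SD was 0.284 for the 42 genes and 0.318 for all genes. Bub1 varied most (SD 0.861), followed by Ccne2 (0.810) and Cdc6 (0.669), a loader of the MCM helicase. Tpx2, a spindle assembly factor, and Cdkn1a varied least, at 0.117 and 0.130.

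**Figure D2:**
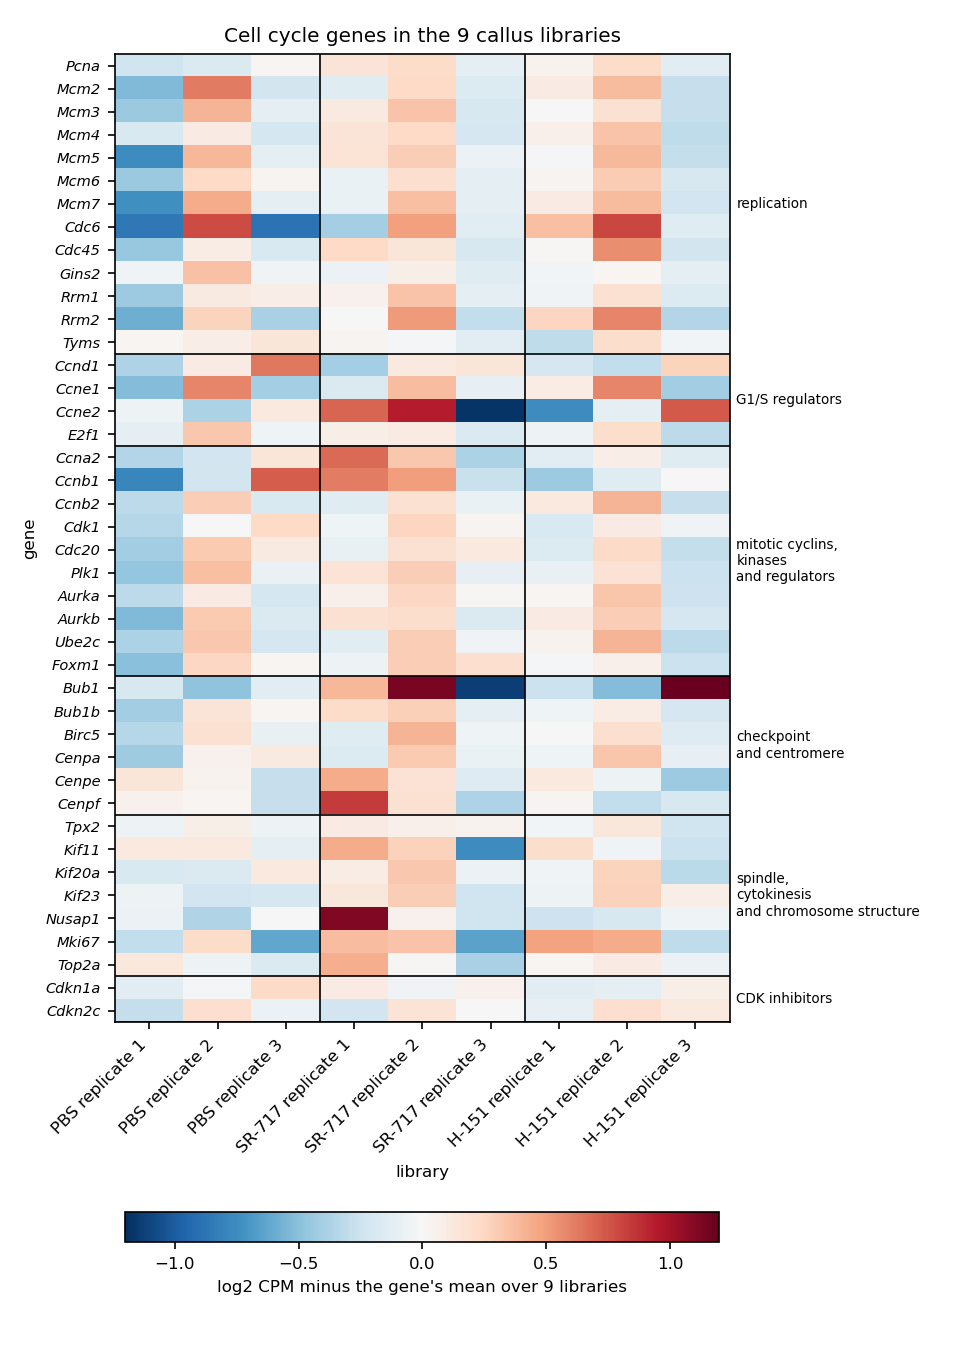
Heat map of the 42 genes (rows, by role) in the 9 libraries (columns, by group), as log2 CPM minus the gene's mean over the libraries. Replicate 2 of each group is red for most replication and mitotic genes, PBS replicate 1 is blue for most, and Nusap1 and Cenpf stand out in SR-717 replicate 1.

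The question of the design was whether inhibiting or activating STING altered the callus transcriptome, and the groups were compared in pairs with edgeR's quasi-likelihood test over all genes. The 3 comparisons share libraries, so their values are given side by side. None of the 42 genes passed an adjusted p of 0.05 in any comparison, and neither did any other gene (0% called in each). None had an unadjusted p under 0.05 in these fits, which were not blocked on replicate number. That rule called 1.03% of 14151 genes between SR-717 and H-151, 0.689% of 14070 between SR-717 and PBS, and 0.646% of 14085 between H-151 and PBS. With a 1.5-fold change required as well, it called 0.756%, 0.519% and 0.426% of genes and none of the 42. DESeq2's Wald test also called none of the 42, adjusted or unadjusted. Its unadjusted p was under 0.05 for 281 of 14151, 178 of 14070 and 125 of 14085 genes in the same order. It called 1 gene at an adjusted p of 0.05, between SR-717 and H-151. With a block for replicate number, edgeR gave 2 of the 42 (4.76%) an unadjusted p under 0.05 between H-151 and PBS, against 3.06% of all genes. It gave none between SR-717 and PBS, against 3.80% of genes, and none between SR-717 and H-151, against 173 of 14151.

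The groups overlapped for each of the 42 genes in each comparison. Across all genes, all 3 SR-717 libraries lay above all 3 H-151 libraries for 2.67% and below for 2.51%. Against PBS, the corresponding shares were 1.49% above and 2.26% below for SR-717, and 1.55% above and 2.31% below for H-151.

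The intervals show what the 3 libraries per group could resolve. The median standard error of the 42 log2 fold changes was 0.207 between SR-717 and H-151, 0.230 between SR-717 and PBS and 0.207 between H-151 and PBS. The 95% interval lay within a 2-fold change in either direction for 36, 33 and 35 of the 42 genes in the same order, and within 1.5-fold for 24, 10 and 20. A 2-fold change in either direction thus lay outside the intervals of most of the genes. For many, a 1.5-fold change in at least 1 direction was not excluded.

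**Figure D3:**
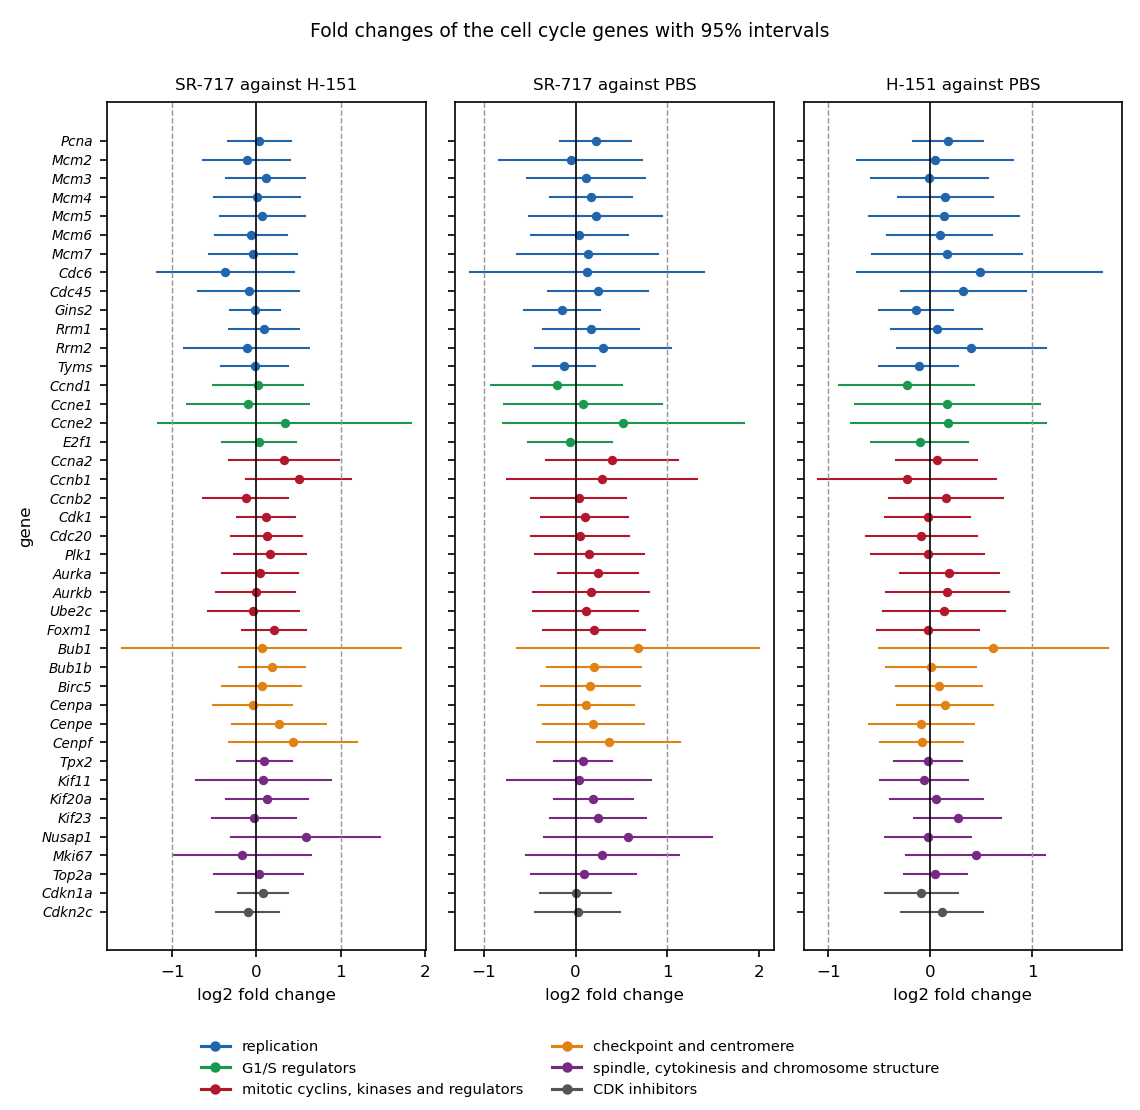
Log2 fold change (points) with 95% intervals (lines) for the 42 genes in the 3 comparisons, coloured by role, with dashed lines at a 2-fold change. Every interval crosses 0. Bub1 and Ccne2 have the widest between SR-717 and the other groups, and Cdc6 has the widest between H-151 and PBS.

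Between SR-717 and H-151 the median log2 fold change of the 42 genes was 0.04, against 0.02 for all tested genes, and 26 of 42 (61.9%) were positive against 53.4% of all genes. This count was 14 without SR-717 replicate 2, 15 without H-151 replicate 3 and 37 without H-151 replicate 2, so that 1 library turned the majority. By role the medians were −0.02 for replication, 0.02 for the G1/S regulators, 0.12 for the mitotic regulators, 0.12 for checkpoint and centromere genes, 0.08 for the spindle group and −0.01 for the CDK inhibitors. Between SR-717 and PBS the median was 0.16 (0.01 for all genes) and 37 of 42 were positive (88.1%, against 52.2% of all genes). The role medians there were 0.13, 0.01, 0.16, 0.20, 0.19 and 0.01 in the same order, and the 10 mitotic, 6 checkpoint and 7 spindle genes were all positive in CPM, although Ccnb2, Cdc20, Cenpa, Kif11 and Top2a were negative by mean TPM. Without PBS replicate 1, 22 of 42 were positive and the median was 0.01, and without SR-717 replicate 1 the values were 34 and 0.14. They were 25 and 0.05 without SR-717 replicate 2. The count was 38 without PBS replicate 2 and also without SR-717 replicate 3. Between H-151 and PBS the median was 0.06 (−0.02 for all genes), 26 of 42 were positive (61.9%, against 44.2%), and the role medians were 0.14, 0.03, 0.02, 0.05, 0.05 and 0.01. The count there was 13 without H-151 replicate 2, 18 without PBS replicate 1 and 33 without PBS replicate 2.

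Mean log2 CPM over the genes of a role gives the level of that role in a library. The replication level was 5.06, 5.78 and 5.34 in the PBS libraries, 5.50, 5.76 and 5.34 in the SR-717 libraries and 5.54, 5.84 and 5.28 in the H-151 libraries, in replicate order. Replicate 2 was thus highest in each group and the groups overlapped. The level of the mitotic regulators was 4.79, 5.38 and 5.27 with PBS, 5.35, 5.51 and 5.16 with SR-717 and 5.16, 5.42 and 5.03 with H-151. The spindle level was 4.78, 4.78 and 4.69 with PBS, 5.22, 5.03 and 4.51 with SR-717 and 4.89, 4.98 and 4.67 with H-151, so that SR-717 held both the highest and the lowest library.

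**Figure D4:**
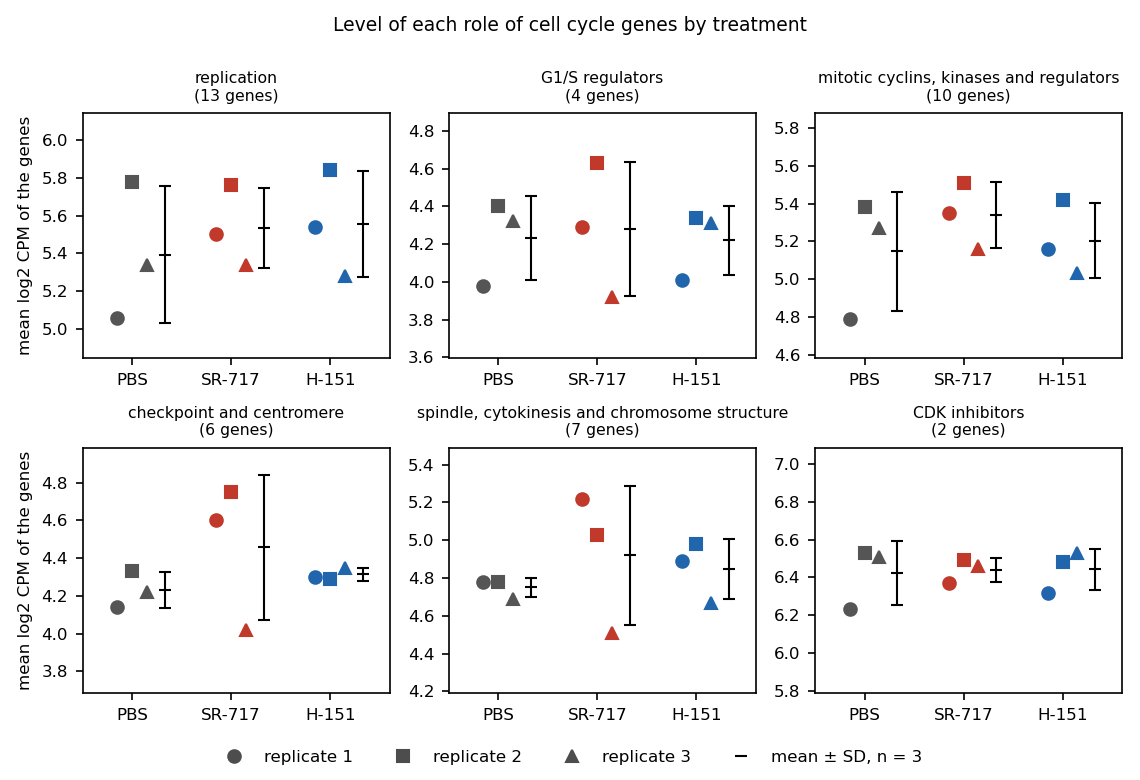
Mean log2 CPM of the genes of each role, 1 point per library with a symbol for the replicate number, beside the group mean ± SD (n = 3). The panels share the height of the axis but not its position. In the replication panel the squares, replicate 2, are the highest points at 5.78, 5.76 and 5.84.

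Among the replication genes, the helicase subunits followed this pattern. Mcm2 was at 39.4, 87.6 and 48.9 CPM in the PBS libraries, 51.6, 67.2 and 50.7 in the SR-717 libraries and 61.0, 74.1 and 47.2 in the H-151 libraries. Both the lowest and the highest value came from PBS, and the log2 fold changes were −0.12 (SE 0.21) for SR-717 against H-151, −0.05 (SE 0.32) for SR-717 against PBS and 0.05 (SE 0.32) for H-151 against PBS. Mcm5 was at 33.3, 74.0 and 52.1 CPM with PBS, 63.0, 68.9 and 53.7 with SR-717 and 55.6, 73.5 and 46.1 with H-151. PBS replicate 1 was its lowest library, and the fold changes were 0.07 (SE 0.21), 0.22 (SE 0.30) and 0.14 (SE 0.31) in the same order.

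Pcna was at 66.0, 69.1 and 78.9 CPM with PBS, 86.5, 90.6 and 71.9 with SR-717 and 79.8, 90.6 and 70.7 with H-151. It was among the 3 genes with the smallest p between SR-717 and PBS, with a log2 fold change of 0.22 (SE 0.16, 95% interval −0.17 to 0.61, unadjusted p = 0.22 and adjusted p = 1 by edgeR), and replicate 3 of SR-717 lay within the PBS range. Rrm2, the regulated subunit of ribonucleotide reductase, was at 36.0, 65.2 and 41.2 CPM with PBS, 54.0, 77.0 and 44.0 with SR-717 and 64.8, 81.2 and 42.2 with H-151. Its log2 fold change between H-151 and PBS was 0.40 (SE 0.31, unadjusted p = 0.233 and adjusted p = 1 by edgeR), the third smallest p there, and replicate 3 of H-151 lay near the lower PBS libraries. It was 0.17 without H-151 replicate 2 and 0.72 without PBS replicate 2 (unadjusted p = 0.05, adjusted p = 0.804).

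Cdc6, which loads the helicase in G1, was at 6.85, 21.6 and 6.74 CPM with PBS, 9.39, 17.6 and 11.4 with SR-717 and 16.1, 21.9 and 11.3 with H-151. PBS replicate 2 lay near the highest H-151 library while the other PBS libraries were the lowest of all. The log2 fold change between SR-717 and H-151, −0.37 (SE 0.34, 95% interval −1.18 to 0.44), was the lowest of the 42 genes there. Between H-151 and PBS it was 0.48 (SE 0.51), and it was 0.65 in a fit blocked on replicate number (SE 0.26, unadjusted p = 0.0483, adjusted p = 1 by edgeR). As each library was left out in turn it ran from 0.21, without PBS replicate 3, to 1.29, without PBS replicate 2 (unadjusted p = 0.0074, adjusted p = 0.664). Between SR-717 and PBS it was 0.13 (SE 0.53), and ran from −0.18 without SR-717 replicate 2 to 0.91 without PBS replicate 2 (unadjusted p = 0.0457, adjusted p = 1).

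The other replication genes, Mcm3, Mcm4, Mcm6, Mcm7, Cdc45 and Gins2 of the helicase, Rrm1 and the thymidylate synthase gene Tyms, had log2 fold changes between −0.15 for Gins2 (SR-717 against PBS) and 0.32 for Cdc45 (H-151 against PBS). The expected counts of Gins2 and Tyms were not whole in each of the 9 libraries, as happens where reads are shared between loci, and their values are uncertain to that extent. Replicate 2 was the highest library of all 3 groups for 10 of the 13 replication genes (76.9%) against 4.74% of all genes.

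The G1/S regulators did not share a pattern. Ccnd1, cyclin D1, which links growth factor signals to the cycle and is expressed in cartilage and bone precursors, was at 66.7, 92.3 and 133 CPM with PBS, 64.9, 93.4 and 95 with SR-717 and 74.8, 70.2 and 104 with H-151. Replicate 3 was highest in each group, and the log2 fold changes against PBS, −0.21 (SE 0.30) for SR-717 and −0.23 (SE 0.28) for H-151, were the lowest of the 42 genes in both comparisons. Its counts were also not whole in the 9 libraries. Ccne1, cyclin E1, was at 9.25, 20.0 and 10.0 CPM with PBS, 11.8, 17.2 and 12.5 with SR-717 and 14.2, 20.0 and 9.95 with H-151, with replicate 2 highest in each group. E2f1, a transcriptional activator of replication genes, was at 20.6, 28.0 and 21.6 CPM with PBS, 23.4, 23.9 and 19.8 with SR-717 and 21.4, 25.9 and 17.9 with H-151, and its fold changes lay between −0.11 and 0.03. Ccne2 ranged from 2.10 CPM in SR-717 replicate 3 to 9.48 in SR-717 replicate 2, which spans the range of the study within a single group, and its log2 fold change between SR-717 and PBS was 0.52, with values of 0.15 without SR-717 replicate 2 and 0.94 without SR-717 replicate 3 (unadjusted p = 0.0199, adjusted p = 0.996 by edgeR).

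Of the mitotic cyclins, Ccnb1, which encodes cyclin B1, the partner of Cdk1, gave the smallest p of the 42 genes in any comparison. It was at 73.7, 68.0 and 39.8 CPM with SR-717, 35.4, 43.4 and 48.3 with H-151 and 27.9, 41.3 and 79.6 with PBS. A pair of SR-717 libraries lay above all H-151 libraries and the other lay among them, while PBS covered both groups and held the highest and the lowest value. The log2 fold change between SR-717 and H-151 was 0.51 (SE 0.26, 95% interval −0.12 to 1.13, unadjusted p = 0.0965 and adjusted p = 0.996 by edgeR). Without SR-717 replicate 3 it was 0.74 with an unadjusted p of 0.00708 and an adjusted p of 0.694, and without SR-717 replicate 1 it was 0.34.

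Ccna2, cyclin A2, which acts in S phase and at mitotic entry, was at 98.7, 77.1 and 47.3 CPM with SR-717, 56.3, 65.0 and 55.6 with H-151 and 48.3, 52.6 and 68.3 with PBS. SR-717 held the highest 2 libraries and the lowest one. Its log2 fold change against PBS was 0.40 (SE 0.30, unadjusted p = 0.225 and adjusted p = 1 by edgeR), and without SR-717 replicate 3 it was 0.64 (unadjusted p = 0.039, adjusted p = 0.996), as against H-151, where it went from 0.33 to 0.57 (unadjusted p = 0.0199, adjusted p = 0.694). Without SR-717 replicate 1 it was 0.15 against PBS and 0.07 against H-151. Its counts were not whole in the 9 libraries.

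The kinases moved within a narrow span. Cdk1 was at 45.3, 57.3 and 67.7 CPM with PBS, 55.2, 68.5 and 58.5 with SR-717 and 50.6, 61.3 and 55.7 with H-151. Plk1, the polo-like kinase of mitotic entry and exit, was at 23.9, 42.2 and 31.1 CPM with PBS, 36.9, 40.3 and 30.6 with SR-717 and 30.8, 37.2 and 27.4 with H-151. Aurkb, the kinase of the chromosomal passenger complex, was at 12.9, 23.2 and 16.6 CPM with PBS, 21.2, 21.6 and 16.5 with SR-717 and 20.0, 22.9 and 16.2 with H-151. PBS replicate 1 was the lowest library for the 3 kinases. Their log2 fold changes lay between −0.03 and 0.17 in the 3 comparisons, with standard errors from 0.14 to 0.26, and the interval of Cdk1 was −0.23 to 0.46 between SR-717 and H-151.

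Foxm1, a transcription factor of G2 and M phase genes, was at 26.5, 44.6 and 38.2 CPM with PBS, 35.9, 46.1 and 43.3 with SR-717 and 37.0, 39.1 and 31.4 with H-151. The groups overlapped, with log2 fold changes of 0.21 (SE 0.16) between SR-717 and H-151, 0.20 (SE 0.23) between SR-717 and PBS and −0.02 (SE 0.21) between H-151 and PBS. Ccnb2, Cdc20, Aurka and Ube2c had log2 fold changes between −0.13 for Ccnb2 (SR-717 against H-151) and 0.24 for Aurka, the spindle pole kinase (SR-717 against PBS). Replicate 2 was highest in all 3 groups for 7 of the 10 genes of this role (70%).

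Among checkpoint and centromere genes, Bub1 had the highest log2 fold change of the 42 genes in both comparisons with PBS. It was at 5.37, 4.35 and 5.56 CPM with PBS, 8.10, 13.6 and 2.74 with SR-717 and 5.10, 4.24 and 14.1 with H-151. A single H-151 library and a pair of SR-717 libraries lay above PBS, and the others lay within or below its range. The log2 fold changes were 0.68 (SE 0.55, 95% interval −0.64 to 2.00) for SR-717 and 0.62 (SE 0.47, −0.51 to 1.74) for H-151. As each library was left out in turn, the former ran from 0.09, without SR-717 replicate 2, to 1.09, without SR-717 replicate 3 (unadjusted p = 0.0178, adjusted p = 0.996 by edgeR), and the latter from −0.12, without H-151 replicate 3, to 0.92, without H-151 replicate 2.

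Cenpf was at 34.4, 21.8 and 14.8 CPM with SR-717, 19.6, 15.6 and 16.8 with H-151 and 19.9, 19.5 and 15.8 with PBS, so that the SR-717 libraries included the highest and the lowest of the 9. Its log2 fold change between SR-717 and H-151 was 0.44 (SE 0.32, unadjusted p = 0.211 and adjusted p = 0.996 by edgeR), the third smallest p there, and it ran from 0.07 to 0.69 as each library was left out in turn, the lowest being without SR-717 replicate 1 and the highest being without SR-717 replicate 3 (unadjusted p = 0.0347, adjusted p = 0.694). Bub1b, Birc5 (survivin), the centromeric histone gene Cenpa and the kinetochore motor gene Cenpe had fold changes between −0.09 and 0.27 on the log2 scale, from Cenpe with H-151 against PBS to Cenpe with SR-717 against H-151. Without SR-717 replicate 1, the highest library for Cenpe, its values were 0.11 against H-151 and 0.04 against PBS.

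In the spindle and chromosome structure group, Nusap1, a nucleolar and spindle associated protein gene on chromosome 2 (chr2:119618298-119651244 on the + strand of GRCm38), gave the highest fold change between SR-717 and H-151. It was at 28.6, 13.7 and 11.1 CPM with SR-717, 11.1, 11.5 and 12.7 with H-151 and 12.6, 10.2 and 13.1 with PBS. SR-717 replicate 1 alone stood above the other 8 libraries by a wide margin. The log2 fold change was 0.59 (SE 0.37, 95% interval −0.30 to 1.47, unadjusted p = 0.158 and adjusted p = 0.996 by edgeR) against H-151 and 0.58 (SE 0.38, unadjusted p = 0.179 and adjusted p = 1) against PBS. As each library was left out in turn, these ran from 0.07 to 0.84 and from 0.06 to 0.82, the lowest being without SR-717 replicate 1 and the highest without SR-717 replicate 3 (unadjusted p = 0.0481 against H-151).

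Mki67, which encodes the Ki-67 protein used as a histological marker of cycling cells, was at 77.5, 111 and 61.5 CPM with PBS, 123, 120 and 60.9 with SR-717 and 133, 129 and 77.1 with H-151 (chr7:135689784-135716361, strand −). Replicate 3 was lowest in each group, and means were 83.2 ± 25.0 with PBS, 102 ± 35.2 with SR-717 and 113 ± 31.3 with H-151 (SD, n = 3). The log2 fold change between H-151 and PBS was 0.45 (SE 0.29, 95% interval −0.24 to 1.13, unadjusted p = 0.168 and adjusted p = 1 by edgeR), the smallest p of the 42 genes in that comparison. Each H-151 library exceeded the PBS library of the same number, and blocking on replicate number gave an unadjusted p of 0.0253 (SE 0.15, adjusted p = 1). In the unblocked fit the log2 fold change was 0.27 without PBS replicate 3, 0.66 without H-151 replicate 3 (unadjusted p = 0.0467) and 0.72 without PBS replicate 2 (unadjusted p = 0.0469). In the blocked fit, Mki67 and Cdc6 made 2 of 42 genes (4.76%) with an unadjusted p under 0.05, against 3.06% of all genes. The blocked fit of SR-717 against PBS had none of the 42, against 3.80% of all genes.

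Top2a, whose product untangles chromosomes, was at 64.3, 56.1 and 51.9 CPM with PBS, 79.2, 59.2 and 44.8 with SR-717 and 59.5, 62.8 and 56.1 with H-151, and SR-717 again held the highest and the lowest library. Without SR-717 replicate 1 its log2 fold changes for SR-717 were −0.20 against H-151 and −0.14 against PBS, from 0.03 and 0.09 with it. Kif23, a motor of cytokinesis, was at 10.2, 9.09 and 9.21 CPM with PBS, 11.7, 13.1 and 8.99 with SR-717 and 10.2, 12.9 and 11.2 with H-151. Its log2 fold change between H-151 and PBS was 0.27 (SE 0.18, unadjusted p = 0.179 and adjusted p = 1 by edgeR), the second smallest p there, with H-151 replicate 1 at the level of PBS replicate 1. Tpx2, Kif11 and Kif20a had log2 fold changes between −0.06 and 0.19. Kif11 went to −0.14 against H-151 and −0.19 against PBS without SR-717 replicate 1, its highest library, and the counts of Kif20a were not whole in the 9 libraries.

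The CDK inhibitors gave some of the narrower intervals. Cdkn1a was at 193, 209 and 248 CPM with PBS, 227, 205 and 219 with SR-717 and 194, 196 and 222 with H-151. Its log2 fold changes were 0.08 (95% interval −0.21 to 0.38), 0.00 (−0.38 to 0.39) and −0.09 (−0.45 to 0.27) for SR-717 against H-151, SR-717 against PBS and H-151 against PBS. Cdkn2c, which encodes p18, an inhibitor of CDK4 and CDK6, was at 28.9, 40.5 and 33.5 CPM with PBS, 30.0, 39.4 and 35.1 with SR-717 and 32.9, 40.5 and 38.2 with H-151. Its fold changes lay between −0.10 and 0.12. The counts of Cdkn1a were not whole in the 9 libraries.

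The 4 libraries with the highest replication levels were also the highest for erythroid and pre-B cell markers, but the match did not extend to the next library. The 4 highest replication levels were in replicate 2 of each group and in H-151 replicate 1, and the same 4 libraries were the highest for the 11 erythroid markers (mean log2 CPM 7.84, 7.57, 7.37 and 7.24 in H-151 replicate 2, PBS replicate 2, SR-717 replicate 2 and H-151 replicate 1, against 3.48 to 6.19 in the others) and for the pre-B cell markers (2.39 to 2.78, against −0.47 to 1.40). PBS replicate 1 was lowest in all 3, at 5.06, 3.48 and −0.47. SR-717 replicate 1, the next library for replication at 5.50, was 8th for both the erythroid (3.96) and the pre-B markers (0.22). Marker lists of cartilage, osteoblasts, osteoclasts, neutrophils and their precursors, macrophages, and T and NK cells were also looked at. So were lists of skeletal muscle, keratinocytes, endothelium and fibroblasts. None of these had the same 4 libraries as its 4 highest. Among the erythroid markers, Tfrc did not follow the rest. It was highest in H-151 replicate 3 (274 CPM) and PBS replicate 1 (252 CPM) and lowest in H-151 replicate 2 (90.1 CPM). The summed erythroid markers were 4150 to 14400 CPM with H-151, 686 to 9930 with PBS and 1000 to 8330 with SR-717, with none of the 11 at 0. Summed pre-B markers were 53.2 to 107 CPM with H-151, 38.6 to 82.8 with PBS and 40.4 to 108 with SR-717. Of the 11 pre-B markers, 1 was at 0 in each of H-151 replicate 3, PBS replicate 1 and SR-717 replicate 1. Low pre-B levels thus rest partly on genes near the floor.

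SR-717 replicate 1, the highest library for Nusap1, Cenpf, Ccna2 and Top2a, was 5th in the replication level and 8th in the erythroid markers, and it was first for the spindle level (5.22) and for mature neutrophil markers (9.48, against 4.14 to 7.23 in the others). It was also first for neutrophil precursor (8.24), macrophage (8.72) and T and NK cell markers (2.91). PBS replicate 1, next for mature neutrophil markers at 7.23, had a spindle level of 4.78, below several other libraries. The summed mature neutrophil markers were 1340 to 10900 CPM with SR-717, 693 to 2200 with H-151 and 359 to 2470 with PBS, with none of the 8 at 0. The part of these cells in the levels of the cell cycle genes was not tested.

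**Figure D5:**
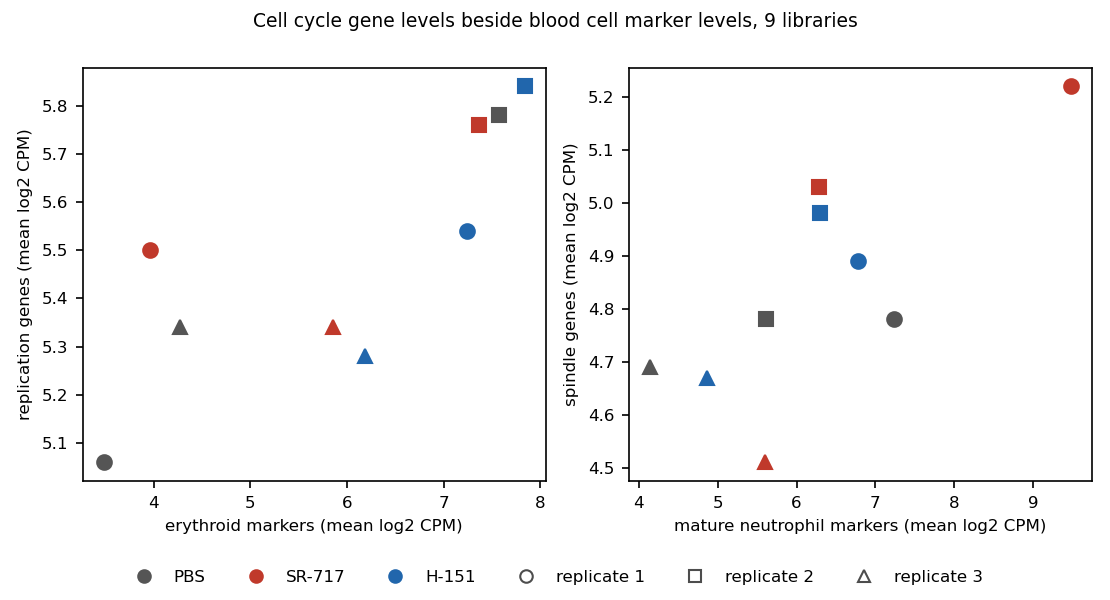
Left, replication genes against erythroid markers, and right, spindle genes against mature neutrophil markers, both as mean log2 CPM, 1 point per library (colour, treatment; symbol, replicate number). On the left the squares and the H-151 circle form the upper right at erythroid levels of 7.24 and above, and on the right SR-717 replicate 1 stands alone at 9.48 and 5.22.

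A further list of 138 cell cycle genes was all found and tested. None passed an adjusted p of 0.05 in any comparison. Their median log2 fold changes were 0.05, 0.15 and 0.10 for SR-717 against H-151, SR-717 against PBS and H-151 against PBS. In the same order 84, 111 and 98 of 138 were positive, against 53.4%, 52.2% and 44.2% of all tested genes. As each library was left out in turn, these counts ran from 48 to 109, from 81 to 121 and from 73 to 116. The lowest were without SR-717 replicate 2 in both SR-717 comparisons and without H-151 replicate 2 between H-151 and PBS. By unadjusted p, 1 of the 138 (0.725%, against 0.646% of all genes) was under 0.05, Cenpk, a centromere protein gene, with H-151 against PBS. It was at 1.43, 0.803 and 1.07 CPM with PBS, 1.96, 1.53 and 3.94 with H-151 and 2.32, 4.08 and 1.11 with SR-717, which is a low level, and its log2 fold change was 1.17 (SE 0.46, unadjusted p = 0.0374 and adjusted p = 1 by edgeR). It was 0.67 (unadjusted p = 0.15) without H-151 replicate 3, 0.99 (unadjusted p = 0.103) without PBS replicate 2 and 1.16 (unadjusted p = 0.0763) without PBS replicate 3. Without PBS replicate 2 in that comparison, 9 of the 138 (6.52%) had an unadjusted p under 0.05 by edgeR, against 884 of all 14229 genes. Between SR-717 and H-151 without SR-717 replicate 3 the number was 6 (4.35%), against 757 of 14365 genes. Between SR-717 and PBS it was 5 (3.62%) without PBS replicate 2, against 303 of 14229 genes. Without SR-717 replicate 3 it was also 5 there, against 348 of 14362 genes. The median of the 138 between SR-717 and H-151 ran from −0.07, without SR-717 replicate 2, to 0.13, without SR-717 replicate 3.

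The smallest p between SR-717 and H-151 in this list was that of Kif2c, a microtubule depolymerase of the kinetochore, at 19.8, 20.6 and 17.7 CPM with SR-717 and 15.6, 16.8 and 15.4 with H-151. Its SR-717 libraries all lay above its H-151 libraries, as they did for 2.67% of all 14151 genes. The log2 fold change of Kif2c was 0.27 (SE 0.14, unadjusted p = 0.0946 and adjusted p = 0.996 by edgeR). Cdkn2b, which encodes the CDK inhibitor p15, was second at −0.50 (SE 0.29) and Cenpi followed at 0.39 (SE 0.24). Between SR-717 and PBS, Cenpk (1.19, SE 0.53), Cdkn3, a phosphatase of cyclin-dependent kinases (0.45, SE 0.21), and Kif15, a spindle motor (0.93, SE 0.45), had the smallest p, from 0.0638 to 0.0833 with an adjusted p of 1 by edgeR. Cdca3 (0.38, SE 0.18) and Tipin, of the replication fork (0.40, SE 0.20), followed Cenpk between H-151 and PBS.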

How the data were processed

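The authors deposited a table of 22054 genes in 9 libraries with expected counts (estimated counts that need not be whole, not normalized) and TPM values, scaled for length to a fixed total per library. The processing notes name mm10. The aligner, counter and annotation are not given in the sources used here. The libraries were strand-specific, but use of strand in counting is not stated, so overlapping genes and near-identical copies are uncertain. Libraries were assigned to groups and replicate numbers from the labels, and no 2 libraries agreed within sampling noise (chi-square per gene of at least 24.7 over 36 pairs).

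Expected counts were rounded and tested over all genes by edgeR 4.0.16 under R 4.3.3 (filterByExpr at a minimum count of 10 and a total of 15, TMM, glmQLFTest) on the 6 libraries compared, with Benjamini-Hochberg adjustment. CPM were computed from the counts after TMM over the 9 libraries, and log2 CPM with a prior count of 2. Fold changes are on edgeR's log2 scale, and the study's thresholds, p of 0.05 and 1.5-fold, were applied to the unadjusted p. Counts over all genes use the 14294 kept over 9 libraries where no comparison is named. The code was tested on simulated data. Alternatives were DESeq2 size factors, DESeq2 1.42.0, no filter, a mean count of 50, a joint fit of the 9 libraries, a block for replicate number, omission of each library and a 2-fold threshold.

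Same-numbered libraries deviated together between SR-717 and PBS (r = 0.65, 0.34 and 0.14 across genes, which are not independent replicates) and between H-151 and PBS (0.30, 0.49 and 0.50). A fit blocked on these numbers, which come from the labels, was therefore given as an alternative. The main fits were not blocked, because a pairing is seen only in these same data and is not stated in the labels. Between SR-717 and H-151 r was 0.34, 0.06 and 0.08. What a number stands for is not stated.

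The 42 genes, the list of 138 and the marker lists were chosen with earlier results of these data known. The genes given in full are 16 set by name (Mki67, Top2a, Cdk1, Ccnb1, Aurkb, Plk1, Foxm1, Mcm2, Mcm5, Pcna, Rrm2, Ccnd1, Ccne1, E2f1, Cdkn1a and Cdkn2c), the 3 with the smallest p and those with the largest change in each direction per comparison, and, of the list of 138, the 3 with the smallest p. Ccne2 was added after its values were seen, and other genes are given by range. Gene positions come from GENCODE M21 and promoters from RefSeq, both on GRCm38.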

Additional observations from a re-analysis of the deposited data

How the results depend on the processing

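None of the 42 genes passed an adjusted p of 0.05 under any alternative run. At an unadjusted p under 0.05 with a 1.5-fold change, the count of 0 stayed at 0 under DESeq2 size factors, the DESeq2 Wald test, no filter, a mean count of 50 and all 9 libraries in 1 fit. Over all genes these settings called 61 to 223 between SR-717 and H-151, 37 to 194 between SR-717 and PBS and 28 to 127 between H-151 and PBS. A 2-fold threshold could not raise a count of 0 and is no check of it. As each library was left out in turn the count of the 42 ran from 0 to 3 in each comparison. It was 3 without SR-717 replicate 3 in both SR-717 comparisons and 3 without PBS replicate 2 between H-151 and PBS. In these fits the count over all genes was 661 of 14365 for SR-717 against H-151 and 319 of 14362 for SR-717 against PBS. For H-151 against PBS it was 698 of 14229. With all libraries these counts over all genes were 107, 73 and 60. With the replicate block the count of the 42 was 1 between H-151 and PBS (Cdc6) and 0 in the other comparisons. Where same-numbered libraries deviated together, the block raised the count of all genes past both thresholds. This count went from 73 to 443 between SR-717 and PBS and from 60 to 262 between H-151 and PBS. Between SR-717 and H-151, where pairing was not seen, it went from 107 to 143. The median log2 fold change of the 42 genes ran from −0.03 to 0.16 between SR-717 and H-151, from 0.01 to 0.28 between SR-717 and PBS and from −0.04 to 0.20 between H-151 and PBS as each library was left out. For 29, 22 and 33 of the 42 genes the sign of the fold change turned in at least 1 of these fits. 2 alternatives were chosen after seeing the data. Without SR-717 replicate 1 and PBS replicate 1 the median between SR-717 and PBS was 0.04, with 25 genes positive. With TPM means in place of counts the medians were −0.03, 0.05 and 0.05 (−0.05, −0.09 and −0.04 for all tested genes), and 11, 11 and 3 of the 42 genes had the opposite direction. The cause of these shifts was not tested. The smallest count of any of the 42 genes was 36, for Ccne2 in SR-717 replicate 3, so counting error adds to the spread for the lowest genes.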

Other observations

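Genes induced by p53, 16 in the list used here, which leaves out Cdkn1a, followed the libraries differently from the replication genes. Their mean log2 CPM was highest in SR-717 replicate 1 at 5.15 and lay between 4.24 and 4.62 in the other 8 libraries, with PBS replicate 1 second and PBS replicate 2 last. The median log2 fold change was 0.31 between SR-717 and H-151, 0.26 between SR-717 and PBS and −0.16 between H-151 and PBS, and none of the 16 passed an adjusted p of 0.05 by edgeR. Without SR-717 replicate 1 the medians were 0.06 between SR-717 and H-151 and −0.12 between SR-717 and PBS, where 4 of 16 were then positive against 11 with it. Unadjusted p-values by edgeR were also above 0.05 for all 16 in the 3 comparisons with all libraries. Between SR-717 and H-151, 2 of 16 (12.5%) were below it without SR-717 replicate 2, against 400 of all 14299 genes. Without SR-717 replicate 3, 4 of 16 (25%) were below it, against 757 of 14365 genes. Both fits kept SR-717 replicate 1, the highest library for these genes.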
